A study of Mus musculus with 6 samples.

Results

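Resident cardiac macrophages are described here through 7 genes, Cd163, Lyve1, Timd4, Folr2, Mrc1, F13a1 and Cbr2, chosen by name as markers of these cells; all 7 were found among the 24525 gene rows of the deposited expression table. Hearts of mice aged 3 to 6 months gave 6 libraries of total RNA. Of them 3, replicates 4, 5 and 6, were labelled wild type (WT). The remaining 3, replicates 7, 8 and 9, were labelled MBNL1/2 double knockout (DKO), although the genotype tag of replicate 7 is WT. Per the study's design text the DKO genotype was Mbnl1-/-; Mbnl2cond/cond; Myh6-Cre+/-, so Mbnl1 carried null alleles throughout the animal, whereas Mbnl2 was deleted by a Cre recombinase whose Myh6 promoter is active in cardiomyocytes. Macrophages of the DKO heart therefore carry the Mbnl1 null alleles but are not the cells in which Cre was driven. The sources used here give no strain, sex, Cre or conditional allele for the WT animals, nor do they state that each library came from a separate animal, so p-values measure the spread between these libraries only.

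Resident macrophages populate the heart before birth and largely renew themselves in place, without input from blood monocytes, and they lie along vessels and between cardiomyocytes where they clear dying cells and cellular debris. They are commonly recognised by the phosphatidylserine receptor TIM4 (Timd4), the hyaluronan receptor LYVE1 and the folate receptor FOLR2, and contrasted with macrophages that derive from monocytes carrying the chemokine receptor CCR2. The other members have further known roles: CD163 is the scavenger receptor for haemoglobin bound to haptoglobin, the mannose receptor (Mrc1, CD206) takes up glycoproteins, F13a1 encodes the A subunit of the crosslinking enzyme factor XIII, and Cbr2 is a carbonyl reductase.

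Expression was given as TPM, a relative transcript abundance that scales each gene by transcript length and each library to the same total, so levels can be compared between genes as well as between libraries. TPM carries no read counts, and the sequencing depth behind each value is unknown. Library totals were 999963 to 999991 TPM, and 14084 to 14623 genes reached 1 TPM. Mbnl1 was at 102 to 108 TPM in DKO and 145 to 161 TPM in WT, lower but not absent. Mbnl2 was at 227 to 245 TPM in DKO and 149 to 189 TPM in WT. The gene-level values thus show neither a complete loss of Mbnl1 nor the deletion of Mbnl2. DKO 7 is DKO by title and source name but has a genotype tag of WT. DKO 7 and DKO 8 had the X-inactivation transcript Xist at 152 and 174 TPM, whereas DKO 9 and the WT libraries had transcripts of the Y-linked genes Uty, Kdm5d, Eif2s3y and Ddx3y, which summed to 163 to 179 TPM. The libraries thus differ in sex as well as in genotype label. With a term for sex-linked transcripts every call in the gene lists below was lost except that of Shmt1, and with replicate 7 as WT every one was lost (limma). RNA came from heart tissue, and in such bulk RNA fewer cells of a type and less RNA per cell cannot be told apart. The cardiomyocyte genes Myh6, Tnnt2, Tnni3, Actc1, Ryr2 and Pln summed to 42829 to 45652 TPM in WT and 38444 to 41041 TPM in DKO, and 2 of the 6, Tnni3 and Ryr2, were lower in DKO, Ryr2 not without WT 5.

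The members lie on 5 chromosomes of the GRCm38 (mm10) assembly, and RefSeq annotates each as protein coding. Cd163 lies on chromosome 6 from 124304636 to 124330529, Lyve1 on chromosome 7 from 110850607 to 110862953, and Folr2 on chromosome 7 from 101839988 to 101857190. Timd4 spans 46810786 to 46844333 and Cbr2 120729485 to 120732025 on chromosome 11. Mrc1 lies on chromosome 2 from 14229414 to 14332023 and F13a1 on chromosome 13 from 36867178 to 37050244. Mrc1 contains the microRNA gene Mir511 on the same strand; its row was listed at 23.8 TPM in WT 6 and 27.1 TPM in DKO 7 and at 0 in the other 4 libraries.

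Among the members, the promoters of Cd163, Mrc1 and F13a1 are shown because Cd163 and Mrc1 passed the test of genotype in opposite directions and F13a1 had the highest level in WT. Each sequence is the 250 bases before the start site in RefSeq (GRCm38.p6), 5′ to 3′ on the gene's strand, in lower case with matches to the searched motifs in capitals. They come from chr6:124304401-124304650 (plus strand), chr2:14229164-14229413 (plus strand) and chr13:37050245-37050494 (minus strand). The Cd163 window runs past the gene start given above, 124304636, so the start site used for it lies within the annotated gene.
Cd163: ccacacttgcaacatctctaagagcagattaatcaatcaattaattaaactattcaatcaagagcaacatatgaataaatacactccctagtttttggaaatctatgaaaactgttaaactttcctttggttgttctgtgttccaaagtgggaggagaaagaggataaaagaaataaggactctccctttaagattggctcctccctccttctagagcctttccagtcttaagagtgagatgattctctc
Mrc1: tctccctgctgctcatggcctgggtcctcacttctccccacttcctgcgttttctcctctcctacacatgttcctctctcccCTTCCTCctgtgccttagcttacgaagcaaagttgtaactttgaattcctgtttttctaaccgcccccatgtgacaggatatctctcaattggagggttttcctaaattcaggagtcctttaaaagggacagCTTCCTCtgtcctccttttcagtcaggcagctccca
F13a1: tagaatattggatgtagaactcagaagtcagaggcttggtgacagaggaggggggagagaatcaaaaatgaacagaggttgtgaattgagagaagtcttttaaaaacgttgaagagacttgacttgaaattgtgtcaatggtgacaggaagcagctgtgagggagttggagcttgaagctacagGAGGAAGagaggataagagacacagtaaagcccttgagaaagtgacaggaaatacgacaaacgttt
Motifs were searched on both strands from 250 bases before to 50 bases after the start: the core GAGGAAG of the myeloid factor PU.1, the element TGCTGAC bound by MAF factors, the AP-1 motif TGANTCA and the E-box CACGTG. Of the 7 members 6 matched the promoter table, with 8 start sites in all; Lyve1 has no entry. Mrc1 held 2 copies of the PU.1 core, at 168 to 162 and 36 to 30 bases before the start, and F13a1 held 2 at the start shown, 66 to 60 bases before it and 18 to 24 bases from it within the transcript, and 1 at its other start, at 15 to 21 bases. Cbr2 also held the PU.1 core, Timd4 and Cbr2 the MAF element and Folr2 the AP-1 motif, while none of the 4 motifs occurred in the Cd163 window. Among 32851 mouse promoters of this length the PU.1 core occurred in 13.6%, the MAF element in 4.67%, the AP-1 motif in 7.81% and the E-box in 7.15%. A match is a run of letters and not a measured binding site.

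The resident markers did not move as a block. Cd163 and Lyve1 were lower in DKO hearts, Mrc1 was higher, and Folr2, Timd4, F13a1 and Cbr2 did not pass the test. The test was limma on log2(TPM + 1) for the 14541 genes that reached 1 TPM in 3 or more libraries, with p-values adjusted over all of them (Benjamini-Hochberg). Log2 differences subtract WT from DKO on that scale, which understates changes of low genes. All 7 members passed this filter. Of them 2 were called lower and 1 higher, against 4.22% of all tested genes called lower and 6.51% called higher. The median log2 difference over the members was -0.33 against 0.03 over all tested genes. In 3 members all DKO values lay below all WT values, which held for 13.8% of tested genes, and in 2 members all lay above, which held for 19.1%.

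**Figure D1:**
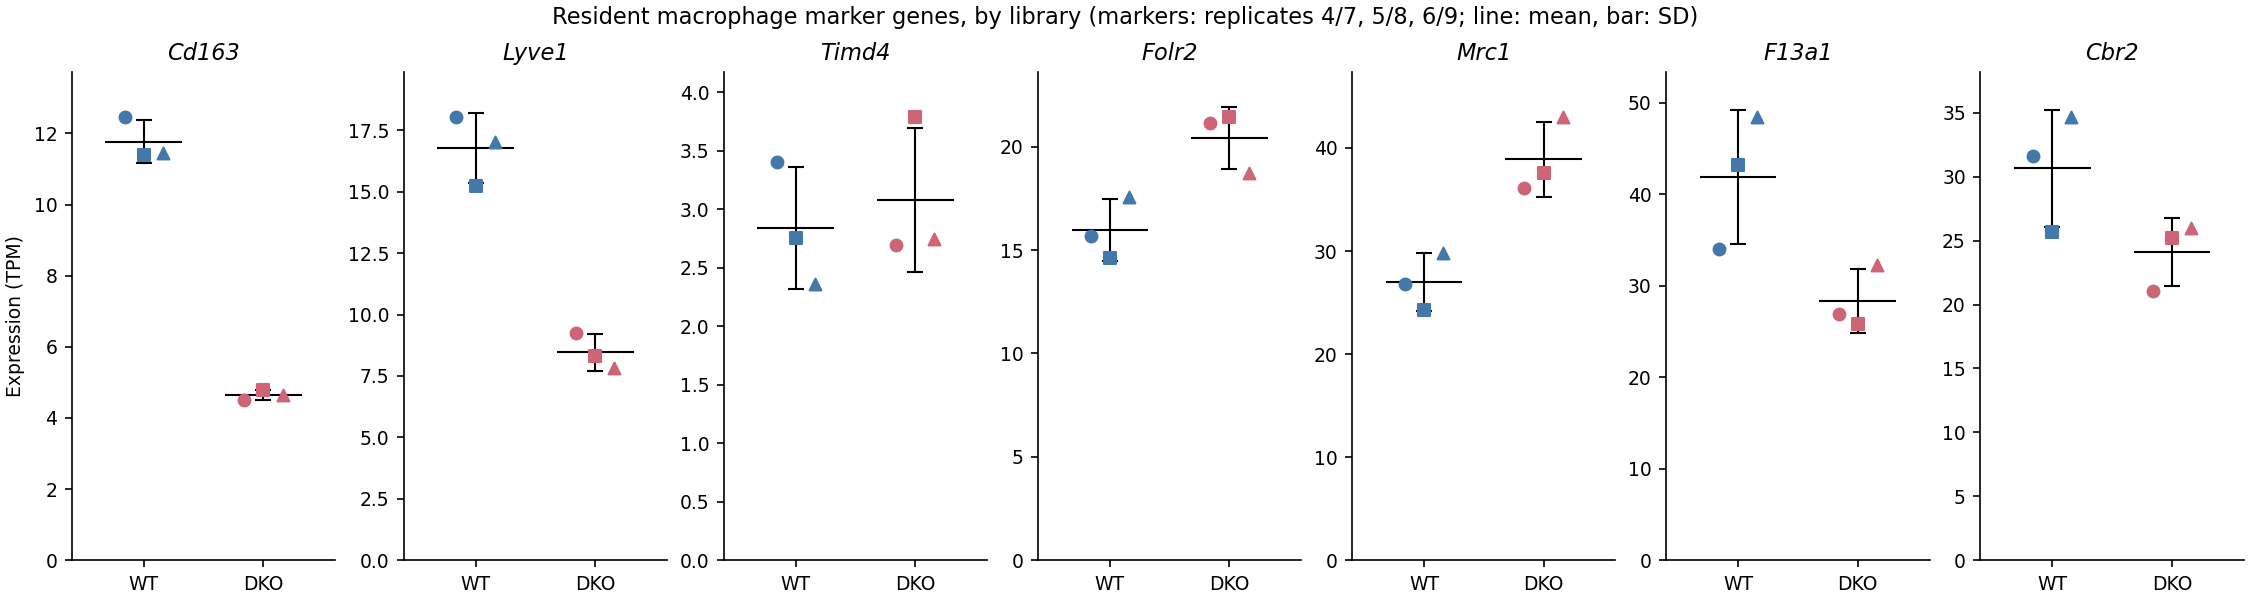
Expression in TPM (y axis, from 0, separate scale per gene) of the 7 resident macrophage markers in the WT and DKO libraries; symbols are single libraries, horizontal lines means and bars SD (n = 3 per group), and shared symbols do not pair libraries. Cd163, Lyve1 and F13a1 separate downward in DKO, Mrc1 and Folr2 upward, and Timd4 and Cbr2 overlap.

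Cd163 showed the largest difference of the 7. It was at 12.5, 11.4 and 11.5 TPM in WT 4, 5 and 6 and at 4.50, 4.79 and 4.65 TPM in DKO 7, 8 and 9. The groups were far apart and each was narrow, with a coefficient of variation of 5.19% in WT and 3.15% in DKO. The DKO mean was 0.395 of the WT mean (11.8 ± 0.611 to 4.65 ± 0.147 TPM, SD, n = 3 each), a log2 difference of -1.18 (SE 0.12; limma, adjusted p = 0.00412). This absolute log2 difference exceeded those of 96.04% of tested genes. Without any single library the call held, with adjusted p between 0.0152 and 0.0187. DKO 9, the DKO library with Y-linked transcripts, lay between DKO 7 and DKO 8. Among the DKO libraries it was nearest the WT mean for Folr2, F13a1 and Cbr2 and farthest from it for Lyve1 and Mrc1. A single such library does not separate sex from genotype. With a term for sex-linked transcripts the log2 difference of Cd163 was -1.18, and the adjusted p was 0.066 (limma), over the threshold of 0.05.

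Lyve1 was at 18.1, 15.2 and 17.01 TPM in WT 4, 5 and 6 and at 9.27, 8.30 and 7.81 TPM in DKO 7, 8 and 9. All DKO values were below all WT values, with DKO 9 the lowest. Its mean fell to 0.504 of the WT level (16.8 ± 1.43 to 8.46 ± 0.742 TPM), a log2 difference of -0.91 (SE 0.12; limma, adjusted p = 0.00774). The call also held without any single library (adjusted p 0.0199 to 0.0313), while with the term for sex-linked transcripts the log2 difference was -1.01 and the adjusted p 0.079 (limma). Lyve1 is also known from lymphatic endothelium. Markers of that cell type, Prox1, Pdpn, Flt4, Ccl21a, Mmrn1 and Reln, summed to 117 to 141 TPM in WT and 126 to 135 TPM in DKO, and 0 of the 6 passed in either direction (limma), with 1, Pdpn, at an unadjusted p under 0.05. Pdpn was at 5.12 to 6.74 TPM in WT and 7.80 to 11.0 TPM in DKO (limma, adjusted p = 0.0616), opposite in sign to Lyve1.

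Mrc1 moved the other way. It was at 26.8, 24.2 and 29.8 TPM in WT 4, 5 and 6 and at 36.2, 37.6 and 43.0 TPM in DKO 7, 8 and 9, without overlap. The mean was 1.44 times the WT mean (27.0 ± 2.80 to 38.9 ± 3.64 TPM), a log2 difference of 0.51 (SE 0.11; limma, adjusted p = 0.0324). The call was lost without WT 4, WT 5, DKO 7, DKO 8 or DKO 9, with adjusted p of 0.0585 to 0.086, and held without WT 6 (0.0482). It was also lost when the variance was fitted without an intensity trend (0.0553) and with the term for sex-linked transcripts (limma, adjusted p = 0.122), where the log2 difference was 0.66.

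Folr2 resembled Mrc1 in direction without passing. It was at 15.7, 14.6 and 17.6 TPM in WT 4, 5 and 6 and at 21.1, 21.5 and 18.7 TPM in DKO 7, 8 and 9. The groups did not overlap, the DKO mean was 1.28 times the WT mean, and the log2 difference was 0.34 (95% interval 0.08 to 0.60; limma, adjusted p = 0.101). Timd4, the least abundant member, was at 3.399, 2.75 and 2.36 TPM in WT 4, 5 and 6 and at 2.70, 3.79 and 2.75 TPM in DKO 7, 8 and 9. The groups overlapped throughout, with a log2 difference of 0.09 (95% interval -0.37 to 0.55; limma, adjusted p = 0.821). This interval includes changes of either sign, and the spread of Timd4 between libraries, 18.5% in WT and 20.1% in DKO, was the widest of the 7.

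F13a1 and Cbr2 had lower means in DKO but did not pass. F13a1 was at 34.0, 43.2 and 48.5 TPM in WT 4, 5 and 6 and at 26.9, 25.8 and 32.3 TPM in DKO 7, 8 and 9. All DKO values were below all WT values, although WT 4 and DKO 9 lay close, and the log2 difference was -0.54 (95% interval -0.90 to -0.18; limma, adjusted p = 0.0677). F13a1 passed without WT 4, the WT library with the lowest value (log2 difference -0.68; limma, adjusted p = 0.0398), and when haemoglobin and short RNA rows were left out of the total (0.0375). Cbr2 was at 31.6, 25.7 and 34.7 TPM in WT 4, 5 and 6 and at 21.1, 25.2 and 26.0 TPM in DKO 7, 8 and 9. WT 5 lay within the DKO range, and the log2 difference was -0.33 (limma, adjusted p = 0.183). Permuting the group labels exactly, two-sided, gave p = 0.1 for Cd163, Lyve1, Folr2, Mrc1 and F13a1, 0.2 for Cbr2 and 0.7 for Timd4; 3 libraries against 3 cannot give less than 0.1.

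With replicate 7 placed in WT, as its genotype tag has it, no member passed (limma, adjusted p of 0.501 for Lyve1 and Mrc1 and 0.502 for Cd163). At an unadjusted p under 0.05 (limma), 1 member was lower and 1 higher, against 1439 of all 14541 tested genes in either direction. The Cd163 value of replicate 7, 4.50 TPM, was the lowest of all 6 libraries. Its Lyve1 value, 9.27 TPM, was below the lowest WT value, 15.2 TPM, and its Mrc1 value, 36.2 TPM, lay above every WT library. Mbnl1 in replicate 7 was at 102 TPM, beside 108 and 107 TPM in DKO 8 and DKO 9 and 145 to 161 TPM in WT 4, 5 and 6. Mbnl2 in replicate 7 was at 227 TPM, beside 240 and 245 TPM in DKO 8 and DKO 9 and 149 to 189 TPM in WT 4, 5 and 6. Which of its 2 labels is right was not tested.

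The order of the members by level changed with these shifts. In WT the order was F13a1 (41.9 ± 7.31 TPM), Cbr2 (30.7 ± 4.57 TPM), Mrc1 (27.0 TPM), Lyve1 (16.8 TPM), Folr2 (16.0 ± 1.51 TPM), Cd163 (11.8 TPM) and Timd4 (2.84 ± 0.524 TPM). The ranges of F13a1 and Cbr2, of Cbr2 and Mrc1 and of Lyve1 and Folr2 overlapped across WT libraries. Within each WT library F13a1 stood above Cbr2 and Cbr2 above Mrc1, whereas Lyve1 stood above Folr2 in WT 4 and WT 5 but below it in WT 6. In DKO Mrc1 stood first, above every value of F13a1 (28.3 ± 3.45 TPM), followed by Cbr2 (24.1 ± 2.66 TPM) and Folr2 (20.4 ± 1.49 TPM), whose ranges overlapped. Lyve1, Cd163 and Timd4 came last and did not overlap with each other. The summed TPM of the 7 genes was 142, 137 and 161 in WT 4, 5 and 6 and 122, 127 and 135 in DKO 7, 8 and 9. Mrc1 made up 18.3% ± 0.606 of that sum in WT and 30.4% ± 1.26 in DKO. Folr2 made up 10.9% ± 0.202 and 16.0% ± 1.91, Cd163 8.06% ± 0.869 and 3.64% ± 0.178, and Lyve1 11.5% ± 1.13 and 6.64% ± 0.925 (SD, n = 3 each).

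**Figure D2:**
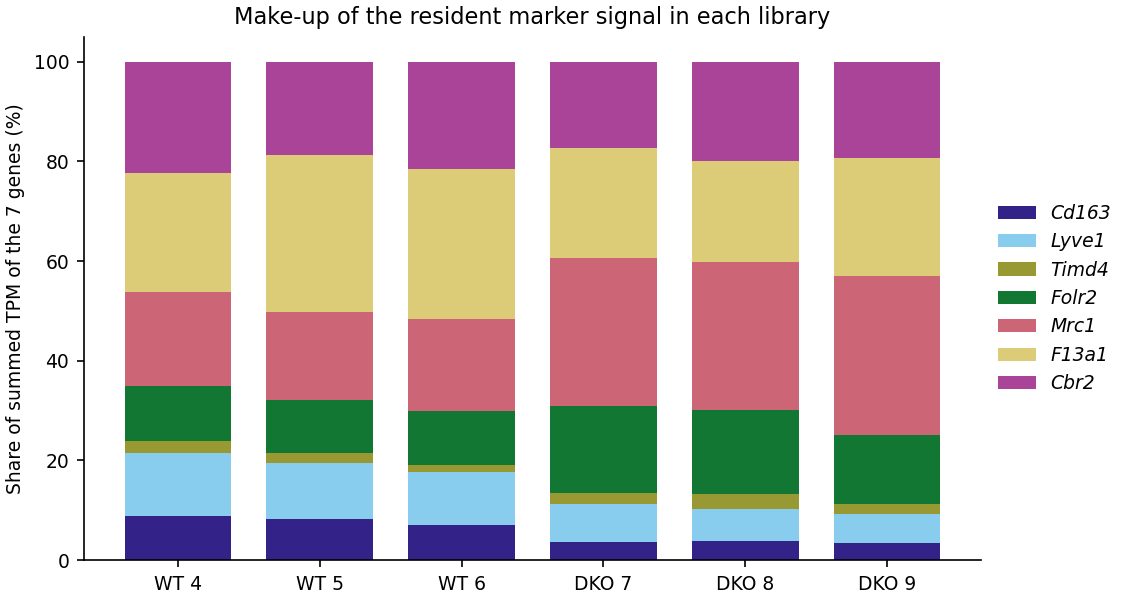
Share of each gene (%, y axis) in the summed TPM of the 7 resident markers, 1 bar per library. The Mrc1 and Folr2 segments are wider and the Cd163 and Lyve1 segments narrower in the 3 DKO libraries; Mrc1 rises from 18.3% to 30.4% on average.

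Ratios taken within a library do not depend on the library total. They were computed after the values had been seen and are given as a description without a test. Cd163 per Mrc1 was 0.465, 0.469 and 0.384 in WT 4, 5 and 6 and 0.124, 0.128 and 0.108 in DKO 7, 8 and 9. Lyve1 per Mrc1 was 0.674, 0.628 and 0.570 against 0.256, 0.221 and 0.181. In both, each DKO library lay well below each WT library. F13a1 per Mrc1 (1.27 to 1.78 in WT, 0.687 to 0.749 in DKO) and Cbr2 per Mrc1 (1.06 to 1.18 and 0.583 to 0.671) also separated. Folr2 per Mrc1 was 0.585 to 0.602 in WT and 0.435 to 0.585 in DKO, with DKO 9 the lowest. Lyve1 per Cd163 was 1.34 to 1.49 in WT and 1.68 to 2.06 in DKO, so Cd163 fell by more than Lyve1 in each DKO library relative to each WT library.

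Of 18 genes of a pan-macrophage list, some of which other leukocytes also express, 9 were higher and 0 lower in the same DKO hearts (limma, adjusted p under 0.05). At an unadjusted p under 0.05 (limma), 14 were higher and 0 lower, against 3921 of all 14541 tested genes in either direction. The median log2 difference was 0.90, and in 14 all DKO values lay above all WT values. Complement C1qa rose from 45.5 to 55.4 TPM in WT to 92.3 to 135 TPM in DKO (log2 difference 1.12; limma, adjusted p = 0.0078), and the fractalkine receptor Cx3cr1 from 4.14 to 6.86 TPM to 13.7 to 17.2 TPM (log2 difference 1.31; limma, adjusted p = 0.0107); both held without any single library. The growth factor receptor Csf1r, on which macrophages depend, was at 38.5, 27.5 and 37.5 TPM in WT 4, 5 and 6 and 55.2, 50.3 and 44.3 TPM in DKO 7, 8 and 9, but did not pass (limma, adjusted p = 0.0707). The engulfment receptor Mertk, which resident macrophages express, had the smallest difference of the list, -0.08 (limma, adjusted p = 0.799), with 9.05 to 12.3 TPM in WT and 8.61 to 11.1 TPM in DKO. The count of 9 fell to 4 without WT 4, DKO 7 or DKO 8, and to 0 with replicate 7 as WT and with the term for sex-linked transcripts, where 17 of the 18 differences were still positive. The summed level of the list was 485 to 645 TPM in WT and 1182, 966 and 807 TPM in DKO 7, 8 and 9, with DKO 9 the lowest of the DKO libraries.

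**Figure D3:**
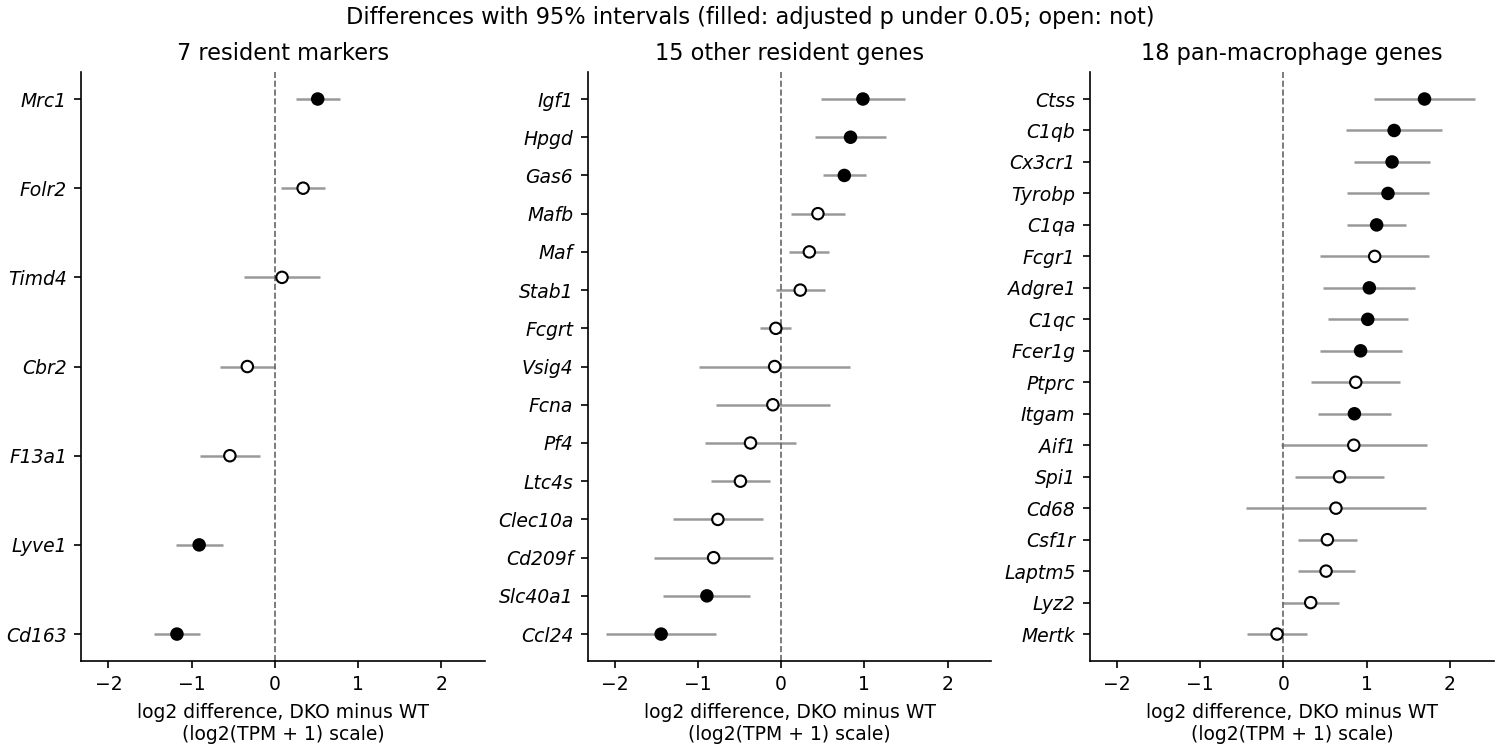
Log2 difference of DKO from WT in log2(TPM + 1) units (x axis) with 95% intervals, for the 7 resident markers, 15 tested genes from a list of further resident macrophage genes and 18 pan-macrophage genes; filled points had an adjusted p under 0.05 (limma). Resident markers and further resident genes spread to both sides of 0, whereas 17 of the 18 pan-macrophage genes lie to the right of it.

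To set each member beside the pan-macrophage list, its log2(TPM + 1) was expressed relative to the mean of those 18 genes in the same library. That list is not specific to macrophages, so the reference can also carry RNA of other leukocytes. The mean was 4.02, 3.87 and 4.20 in WT 4, 5 and 6 and 5.16, 4.91 and 4.67 in DKO 7, 8 and 9. The reference mean was thus 0.89 higher in DKO, so a gene with the same level in both groups would differ by -0.89 on this scale. On it, 6 of the 7 members lay lower in every DKO library than in every WT library. The share of all tested genes that would do so was not computed. The shift of the reference enters this count, so it is not a result about the members alone. The relative level of Cd163 was -0.35 ± 0.18 in WT and -2.42 ± 0.27 in DKO, a difference of -2.06, and that of Lyve1 0.12 ± 0.13 and -1.67 ± 0.14, a difference of -1.80. F13a1 (-1.43) and Cbr2 (-1.22) followed, then Timd4 (-0.80) and Folr2 (-0.55). Folr2, whose TPM was higher in DKO, was lower relative to these genes, and Timd4, whose TPM overlapped, separated; for both the relative difference was less negative than -0.89. Mrc1 differed by -0.37 with overlapping groups, with DKO 9 at 0.79 beside 0.75 to 0.79 in WT, and DKO 7 at 0.05. These relative values are a description, given without a test. All 7 differences kept their sign in each of 9 alternatives. In each the reference was higher in DKO, which gives an unchanged gene a negative sign. With Csf1r as the sole reference, itself 0.53 higher in DKO, all 7 were less negative by more than the spread within groups. Folr2 was then at -0.19 and Mrc1 at -0.01.

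**Figure D4:**
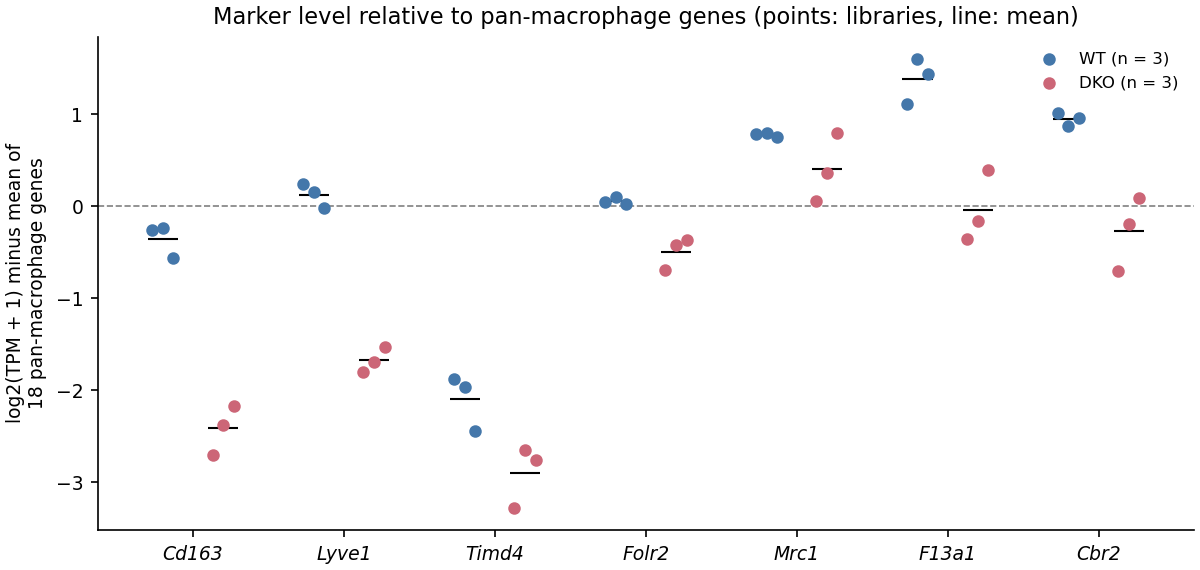
Level of each resident marker as log2(TPM + 1) minus the mean over 18 pan-macrophage genes in the same library (y axis); points are libraries, lines group means, and the dashed line marks a level equal to that mean. The WT and DKO points of 6 markers do not overlap, and those of Mrc1 do. The mean itself was 0.89 higher in DKO, which lowers every gene in DKO on this scale.

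Further genes described in resident macrophages also went in both directions. Of 17 listed, 15 were tested, 3 were higher and 2 lower, with a median log2 difference of -0.08. The 3 higher were Gas6, a bridging ligand between dying cells and TAM receptors (104 to 118 TPM in WT, 162 to 213 TPM in DKO; log2 difference 0.76; limma, adjusted p = 0.01), the growth factor Igf1 (8.79 to 13.7 and 16.9 to 25.9 TPM; limma, adjusted p = 0.0334) and the prostaglandin-degrading enzyme Hpgd (5.82 to 9.61 and 14.2 to 15.1 TPM; limma, adjusted p = 0.0322). The 2 lower were the eosinophil-attracting chemokine Ccl24 (4.60 to 9.37 TPM in WT, 1.14 to 2.14 TPM in DKO; log2 difference -1.44; limma, adjusted p = 0.0239) and the iron exporter Slc40a1 (28.2 to 35.3 and 12.2 to 22.8 TPM; log2 difference -0.89; limma, adjusted p = 0.0486). Gas6 held without any single library but not with the term for sex-linked transcripts (limma, adjusted p = 0.108), and under that term, as with replicate 7 as WT, 0 genes of this list passed in either direction. Igf1 was lost without WT 5, WT 6, DKO 8 or DKO 9, Hpgd without WT 6, DKO 7, DKO 8 or DKO 9, and Ccl24 without WT 4, DKO 7, DKO 8 or DKO 9. Slc40a1 held only without DKO 9, which had the highest DKO value, 22.8 TPM. Igf1, Gas6 and other genes of this list are also expressed by fibroblasts and other heart cells. The lectin Cd209f was at 1.77 to 4.18 TPM in WT and 0.912 to 1.83 TPM in DKO, with an adjusted p of 0.139 (limma). The related Cd209g, at 0.454 to 1.74 TPM in WT, was listed at 0 in all 3 DKO libraries and was below the filter.

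Among 10 transcription factors, growth factors and receptors that maintain macrophages 1 was higher and 0 lower (7 and 1 at an unadjusted p under 0.05), with a median log2 difference of 0.49. The factor Irf8 was at 5.11 to 5.68 TPM in WT and 8.27 to 12.2 TPM in DKO (log2 difference 0.80; limma, adjusted p = 0.0266), a call that held only without DKO 9. Maf, a factor tied to the resident state, was at 12.9 to 14.0 TPM in WT and 16.0 to 18.2 TPM in DKO without passing (limma, adjusted p = 0.0815). The ligands of Csf1r, Csf1 (39.7 to 55.1 and 47.5 to 57.5 TPM) and Il34 (4.10 to 4.52 and 2.48 to 4.45 TPM), overlapped between the groups.

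For markers of monocyte-derived cells and of activated phagocytes, calls were higher in DKO where any passed. Of 9 recruited-monocyte genes 6 were tested, 1 was higher and 0 lower (3 and 0 at an unadjusted p under 0.05), with a median log2 difference of 0.65, and their summed level was 15.7 to 22.2 TPM in WT and 32.5 to 37.4 TPM in DKO. Ccr2 was the gene called, at 5.24, 4.38 and 4.21 TPM in WT 4, 5 and 6 and 11.7, 9.07 and 15.8 TPM in DKO 7, 8 and 9 (log2 difference 1.21; limma, adjusted p = 0.017). This result did not hold without WT 5, WT 6 or DKO 7 (limma, adjusted p up to 0.053). The monocyte gene Chil3 was listed at 0 in WT and at 0.249 to 1.55 TPM in DKO, and F10 was at 4.14 to 6.34 and 7.40 to 8.45 TPM (limma, adjusted p = 0.0997). Of 13 genes of phagocyte activation 6 were higher and 0 lower (median log2 difference 0.41), while Cd9 (-0.21) and Fabp5 (-0.48) had negative log2 differences without passing. Those with the smallest p were Cd72 (0.607 to 1.67 TPM in WT, 6.96 to 13.2 TPM in DKO; log2 difference 2.28; limma, adjusted p = 0.00679) and Ms4a7 (1.80 to 4.12 and 14.3 to 26.0 TPM; log2 difference 2.26; limma, adjusted p = 0.00794), both held without any single library. Of 7 genes of MHC class II presentation 5 were higher and 0 lower (median log2 difference 1.505), among them H2-Eb1 (31.5 to 51.1 and 94.8 to 168 TPM; limma, adjusted p = 0.0164) and H2-Aa (60.1 to 86.8 and 157 to 375 TPM; limma, adjusted p = 0.024, lost without WT 4, WT 5 or DKO 8). DKO 7 had the highest MHC class II sum, 1392 TPM against 705 and 655 TPM in DKO 8 and DKO 9 and 265 to 395 TPM in WT. The phagocyte activation count was 3 without WT 4 or WT 5 and 2 without DKO 7 or DKO 8, and the MHC class II count was 1 without WT 4 or WT 5 and 2 without WT 6 or DKO 8. Itgax, among the activation genes called, fell below the filter without DKO 7, DKO 8 or DKO 9, so it was tested only through its DKO values. With the term for sex-linked transcripts, or with replicate 7 as WT, 0 genes of these 3 lists passed. The part of incoming monocyte-derived cells in the differences of the resident markers was not tested.

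Ligands, partners and paralogues of each member were described by list. Around Cd163, haem scavenging and iron handling genes gave 0 higher and 1 lower, Slc40a1, of 10 tested (median log2 difference 0.08). Haptoglobin Hp (2.33 to 4.02 TPM in WT, 1.71 to 6.89 TPM in DKO) and haem oxygenase Hmox1 (10.9 to 14.7 and 13.2 to 13.6 TPM) overlapped, and biliverdin reductase Blvrb was at 22.7 to 29.2 and 16.1 to 19.3 TPM without passing (limma, adjusted p = 0.0639). Erythroid transcripts, the source of the Cd163 ligand, varied widely: Hba-a1, Hba-a2, Hbb-bs, Hbb-bt and Alas2 summed to 6042, 38458 and 14176 TPM in WT 4, 5 and 6 and 6763, 1781 and 2183 TPM in DKO 7, 8 and 9. Of the 5, 0 passed (limma), while 5 were lower at an unadjusted p under 0.05, and without DKO 7 Hbb-bs and Hbb-bt passed (limma, adjusted p of 0.0101 and 0.0153). Log2 differences were -1.72, -1.86 and -1.88 for Hba-a1, Hba-a2 and Alas2 but -7.97 for Hbb-bs and -6.54 for Hbb-bt. The Hbb-bs and Hbb-bt rows thus fell by far more than the other erythroid rows, and the sum mixes both kinds. The cause of that gap and the part of erythroid RNA in the Cd163 difference were not tested.

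Around Lyve1, hyaluronan genes gave 1 higher and 0 lower of 7 tested (median log2 difference -0.02). The hyaluronan receptor Cd44, of the same protein family as Lyve1, was at 6.55, 8.72 and 7.71 TPM in WT 4, 5 and 6 and 22.4, 18.2 and 21.3 TPM in DKO 7, 8 and 9, opposite to Lyve1 and without overlap (log2 difference 1.32, SE 0.14; limma, adjusted p = 0.00469). It held without any single library, but not with the term for sex-linked transcripts (log2 difference 1.37; limma, adjusted p = 0.066) or with replicate 7 as WT. The hyaluronidase Tmem2 was at 14.1 to 17.3 TPM in WT and 12.4 to 13.03 TPM in DKO (limma, adjusted p = 0.189). The synthases Has2 (0.779 to 1.67 TPM in WT, 0.821 to 1.02 TPM in DKO) and Has3 (1.46 to 2.22 and 0.707 to 1.51 TPM) did not pass.

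Around Timd4, 3 of 14 tested genes of dying-cell uptake were higher and 0 lower (median log2 difference 0.15). These were Gas6, the integrin subunit Itgb5 (63.4 to 82.5 TPM in WT, 108 to 119 TPM in DKO; limma, adjusted p = 0.0203, lost without DKO 8 or DKO 9) and Havcr2, encoding TIM3 of the same family as TIM4 (0.199 to 0.645 and 2.13 to 4.03 TPM; limma, adjusted p = 0.0183, lost without WT 5 or WT 6 and below the filter in 3 of the 6 fits lacking a library). Havcr2 reached 1 TPM in DKO libraries only, so it was tested only through the group where it was higher. Havcr1 and Timd2, further members of the TIM4 family, reached at most 0.379 and 0.498 TPM. Around Folr2, 1 of 10 tested folate genes was higher and 0 lower (median log2 difference 0.03). Shmt1, a serine hydroxymethyltransferase of the folate cycle, rose from 7.49 to 7.96 TPM in WT to 16.5 to 24.7 TPM in DKO (log2 difference 1.33; limma, adjusted p = 0.00622), without loss in any fit lacking a single library or with the term for sex-linked transcripts (limma, adjusted p = 0.0471). Mthfd2 was at 1.48 to 2.49 and 3.07 to 6.00 TPM (limma, adjusted p = 0.071, or 0.0373 without DKO 9), and the paralogue Folr1 was listed at 0 in all libraries but DKO 8, at 0.369 TPM.

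Around Mrc1, 1 of 8 further lectin receptor genes was higher and 0 lower (median log2 difference 0.40). Clec4n, encoding dectin-2, was at 3.25 to 4.16 TPM in WT and 7.15 to 9.86 TPM in DKO (limma, adjusted p = 0.0164, lost without DKO 7 or DKO 9), and the paralogue Mrc2, found on fibroblasts, at 12.8 to 15.3 and 19.1 to 25.7 TPM (limma, adjusted p = 0.0555). The lectin Clec10a lay the other way, at 3.64 to 6.47 and 2.33 to 3.11 TPM, without passing (limma, adjusted p = 0.0821, or 0.038 without WT 4). Around F13a1, the B subunit F13b and the fibrinogen genes Fga, Fgb and Fgg were listed at 0 in all 6 libraries. Of 3 tested genes 1 was higher, the tissue transglutaminase Tgm2 (103 to 151 TPM in WT, 213 to 246 TPM in DKO; log2 difference 0.82; limma, adjusted p = 0.0181, lost without DKO 7 or DKO 8), opposite in sign to F13a1, and Tgm3 was at 1.79 to 2.08 and 2.14 to 3.68 TPM (limma, adjusted p = 0.265). Around Cbr2, 0 of 7 short-chain reductases were higher and 1 lower, Dhrs4 (101 to 120 TPM in WT, 71.8 to 88.9 TPM in DKO; limma, adjusted p = 0.0386, held only without WT 4). Dhrs3 was at 110 to 135 and 137 to 154 TPM (limma, adjusted p = 0.121).

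F13a1 and the listed chemokine Pf4 are also platelet transcripts. The platelet genes Ppbp, Itga2b, Gp9, Gp1bb, Gp6 and Treml1 summed to 27.1, 126 and 39.0 TPM in WT 4, 5 and 6 and 47.7, 12.0 and 55.8 TPM in DKO 7, 8 and 9, with 0 of 6 called and 0 at an unadjusted p under 0.05 (limma). The platelet sum was highest in WT 5 and F13a1 in WT 6 (48.5 TPM), while both were lowest in DKO 8 (F13a1 at 25.8 TPM). Blood endothelial genes gave 0 higher and 2 lower of 6, Tie1 (limma, adjusted p = 0.0224) and Cdh5 (0.0418), with sums of 515 to 599 TPM in WT and 483 to 527 TPM in DKO; Tie1 held only without WT 5 and Cdh5 in no fit lacking a library. Fibroblast genes gave 1 higher, Col1a1 (limma, adjusted p = 0.0319), and 0 lower of 6, with overlapping sums of 1584 to 1740 and 1474 to 1831 TPM; the Col1a1 call was lost without WT 4, WT 5, DKO 8 or DKO 9. The part of these cell types in the member values was not tested.

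Profiles most like each member were sought among 12536 other protein-coding genes by Pearson correlation across the 6 libraries on log2(TPM + 1). With 6 libraries in 2 groups, any gene that separates the groups scores high, so the values are a description: 345 genes exceeded 0.95 with Cd163, 184 with Lyve1 and 13 with Timd4. The nearest to Cd163 were the mitochondrial creatine kinase Ckmt2 (r = 0.999), the phosphodiesterase Pde2a (0.998) and the isocitrate dehydrogenase subunit Idh3b (0.997). The nearest to Lyve1 were Saraf (0.997), Slc4a8 (0.996) and Dnaja4 (0.992), to Mrc1 Ctbp2 (0.997), Snrpe (0.997) and Aprt (0.993), and to Folr2 Rrbp1 (0.997), Stat3 (0.997) and Gnptg (0.992). For F13a1 they were Mlf1 (0.996), Exoc8 (0.994) and Plekhh2 (0.993), for Cbr2 Smndc1 (0.995), Ddhd2 (0.993) and Rps6ka4 (0.992), and for Timd4 C2cd2l (0.986), Slc38a6 (0.982) and Fbln5 (0.980). Several of the nearest genes, such as Ckmt2, are abundant in cardiomyocytes. Among the members themselves, Cd163 and Lyve1 correlated at 0.98, Mrc1 and Folr2 at 0.84, and Cd163 and Mrc1 at -0.91 over the same 6 libraries. After subtraction of each group's mean, the values for these pairs were 0.30, 0.18 and 0.10.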

How the data were processed

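Total RNA of heart tissue was sequenced in 6 libraries, 3 per group. The authors deposited 1 table of TPM values per gene and library, without counts. Tools named by the submitters' processing notes are kallisto 0.44.0 and bcl2fastq, and the build is mm10. Annotation and the step from transcripts to genes: not given in the sources used here. Kallisto splits reads between similar transcripts by estimate, and TPM is relative to the library total, so a change in abundant RNA shifts all other values.

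Groups follow the titles. The differences were fitted across all genes in R 4.3.3 with lmFit and a trended eBayes of limma 3.58.1, on log2(TPM + 1) for genes that reached 1 TPM in 3 or more libraries. Adjustment was Benjamini-Hochberg over every tested gene, and 0.05 was the threshold. The fit was tested on simulated data. Members, lists, tests and alternatives were chosen with earlier results of these data known. Within the 24 lists (the members, pathway genes, cell type markers), counts and medians are given without a set test. Named genes are the 7 members, in each other list the 2 tested genes of smallest p, the 3 nearest profiles of each member, Mbnl1 and Mbnl2. Other genes named within lists were chosen after their values were seen. List counts under the alternatives and ratios between members were added after seeing the data. Promoter sequences and positions come from RefSeq (GRCm38.p6). Figures were drawn with matplotlib 3.10.9.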

Additional observations from a re-analysis of the deposited data

How the results depend on the processing

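In fits with another pseudocount, filter, scaling or variance model and in those lacking 1 library (limma), 2 or 3 members were called lower. With replicate 7 as WT this number was 0, and with the term for sex-linked transcripts it was also 0. At an unadjusted p under 0.05 (limma), replicate 7 as WT gave 1 member lower and 1 higher, against 1439 of all 14541 tested genes. The sex-linked term gave 2 lower and 1 higher, against 2227 of 14541. The number called higher, 1, was 0 with eBayes without trend, with replicate 7 as WT and with the term for sex-linked transcripts, and ranged from 0 to 1 when single libraries were left out. Over all tested genes 1560 were called, 1 with replicate 7 as WT, 92 with the term for sex-linked transcripts and 628 to 876 with 1 library left out. These last fits have fewer samples, and the sex-linked term leaves DKO 9 as the sole DKO library of its kind; the cause of the other changes was not tested. Median-ratio scaling gave 906 genes higher and 845 lower, and quantile scaling 871 and 804, against 946 and 614 without them. Cd163, Lyve1, Folr2, Mrc1, F13a1 and Cbr2 kept their sign in all 16 alternatives, and Timd4 in 11 of 15. No paired analysis was possible because the groups share no replicate number. The unknown depth limits genes at low TPM, such as Timd4, most.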

Other observations

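Other leukocyte markers in the same libraries, outside the macrophage lists, differed by cell type. Mast cell genes gave 2 higher and 0 lower of 5 tested, the chymase Cma1 (0.753 to 1.33 TPM in WT, 3.26 to 8.97 TPM in DKO; limma, adjusted p = 0.02) and the tryptase Tpsb2 (0.766 to 1.77 and 3.27 to 8.73 TPM; limma, adjusted p = 0.0338). Cma1 was lost without WT 5, WT 6, DKO 7 or DKO 9, and Tpsb2 held only without DKO 8, the DKO library with the lowest mast cell sum (15.1 TPM, against 40.4 and 33.3 TPM in DKO 7 and DKO 9). Neutrophil genes gave 0 called of 3 tested (limma; 2 higher at an unadjusted p under 0.05), with S100a9 at 1.15 to 4.08 and 4.93 to 30.3 TPM (limma, adjusted p = 0.0664, or 0.0199 without DKO 9), S100a8 at 0 to 7.52 and 6.76 to 22.5 TPM (limma, adjusted p = 0.142), and Mpo and Ly6g listed at 0 in all libraries. Of the lymphocyte genes 2 were tested, and the B cell receptor component Cd79a was lower (2.10 to 3.02 and 0.368 to 0.856 TPM; limma, adjusted p = 0.0238), a call lost without DKO 7 or DKO 8, with the gene below the filter in 3 of the 6 fits lacking a library, while Cd3d was at 7.37 to 13.6 and 6.69 to 9.86 TPM. Dendritic cell genes gave 0 called of 3 tested and 0 at an unadjusted p under 0.05 (limma), with Xcr1 at 3.54 to 4.93 and 4.65 to 6.49 TPM and Cd209a at 0.530 to 1.04 and 0.970 to 2.00 TPM. The calls for Cma1, Tpsb2 and Cd79a were lost with the term for sex-linked transcripts (limma, adjusted p of 0.141, 0.133 and 0.26) and with replicate 7 as WT. Cd79a reached 1 TPM in WT libraries only, so it was tested only through the group where it was higher.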
